A study of Homo sapiens with 10 samples.

Results

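A set of 10 amino acid transporter genes was followed across 10 RNA-seq libraries of K562 cells, an established erythroleukemia line. They were chosen by a list of names, with no threshold on their values but with earlier results of these data known. The shares of all genes given beside their calls are therefore a description. The 10 genes are SLC7A11, SLC7A5, SLC3A2, SLC7A1, SLC38A1, SLC38A2, SLC1A4, SLC1A5, SLC6A9 and SLC43A1, of the 20535 genes listed for each library. All 10 reached the mean of 1 TPM over the libraries that a gene needed to be tested, as did 10127 genes in total. TPM counts transcripts of a gene as a part of a fixed total, after correction for transcript length.

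Each of 5 groups had 2 libraries. The control cells carried sgGal4, a nontargeting sgRNA, and the labels name no dCas9 fusion for them. The other 4 groups carried sgHS2, the sgRNAs against HS2, an enhancer of the β-globin genes, and one of 4 effectors. These were dCas9-KRAB, dCas9-LSD1 and the enCRISPRi-LK and enCRISPRi-KL complexes, written below as K, L, LK and KL. KRAB and LSD1 are repressor domains, and the enCRISPRi forms carry both, one fused to dCas9 and the other brought in by the sgRNA. Per the study's methods, expression of the fusions was induced by doxycycline, and the study describes its HS2 sgRNAs as combined for RNA-seq. The comparison of each sgHS2 group with sgGal4 asks which transcripts differ between cells with a repressor sent to HS2 and this control. Because sgGal4 is the only control, a difference shared by the 4 groups cannot be told apart from a trait of its cells. None of the 10 transporter genes lies in the β-globin cluster.

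Amino acid transporters of the plasma membrane are carriers, many of which exchange one amino acid for another or move it together with sodium. In proliferating cells they bring in essential amino acids, glutamine, cystine and arginine, and erythroid cells also need glycine, a substrate of heme synthesis. The transcription of several of them is raised by ATF4, the transcription factor of the amino acid response, when amino acids run short.

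The effector genes did not follow the labels in every group. KDM1A, which encodes LSD1, was between 84.2 and 105 TPM in the libraries labelled L but between 25.2 and 33.5 TPM in the other 8. ZNF10, the source of a widely used KRAB domain, was called higher in the libraries labelled L, LK and KL and was not called in those labelled K (limma, adjusted p under 0.05). The 4 effector groups are therefore named below by their labels only. The mitochondrial genes took 53.6% of the listed TPM in sgGal4 replicate 1, 43.7% in sgGal4 replicate 2 and between 39.9% and 46.6% in the 8 sgHS2 libraries. Because TPM is a share, a larger mitochondrial share lowers every other gene in that library.

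The markers of the line and of other blood cells were also followed. Of 12 markers of K562 cells, all were listed above 0 in every library, and their summed TPM was 3895 and 3929 with sgGal4 and between 2206 and 4920 with sgHS2. Over the mean of the 4 groups 2 of the 12 were called lower and 2 higher, against 1.48% and 1.78% of all genes. The embryonic and fetal globin genes HBE1 and HBG2 fell by 1.29 and 0.93 on the log2 scale (adjusted p = 1.05e-05 and 0.00117). The call of HBG2 was lost without a mean-variance trend in limma (adjusted p = 0.0666). Both are among the β-globin genes that the study set out to repress through HS2. KLF1, an erythroid transcription factor, was 0.92 higher (adjusted p = 0.00861, lost without sgGal4 replicate 1), and the embryonic globin gene HBZ was 0.51 higher (adjusted p = 0.0252, kept in 3 of 7 alternatives and 6 of 10 fits with a library left out). Each single comparison held 2 called markers of the 12, except that of KL, which held 4, against 0.869% (L) to 2% (LK) of all genes. The summed TPM of 12 markers of other blood cells separated the groups, at 79.5 and 95.3 with sgGal4 and between 49.1 and 74.0 with sgHS2, with the B cell markers MS4A1 and CD79A and the T cell marker CD3E at 0 in every library. The 5 of these markers that were tested went both ways, with a median log2 fold change of 0.11 over the mean of the 4 groups. CD3D was at 26.1 and 33.6 TPM with sgGal4 and between 1.65 and 21.3 TPM with sgHS2 (log2 fold change -1.89, adjusted p = 0.0792). CD68 was called lower (-1.01, adjusted p = 0.0418, kept in 2 of 10 fits with a library left out). PTPRC was at 17.2 and 17.5 TPM with sgGal4, between 27.0 and 34.8 TPM with K, L and KL and at 17.6 and 13.1 TPM with LK (0.55, adjusted p = 0.15), and LYZ was at 0.84 (adjusted p = 0.395) and CD3G at 0.11 on the log2 scale. The part of these markers in the results below was not tested.

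The amino acid response acts through a short DNA element, and the windows that hold its core letters are shown because 3 of the transporter genes carry them near a start listed in RefSeq. RefSeq promoters (GRCh38.p14, 250 bases before to 50 after the start of transcription) were matched for 9 of the 10 genes, the exception being SLC7A11. Only 1 RefSeq promoter per gene was used, and its start need not be the outermost start of the gene. The core TGATGNAA was searched on both strands and was found in 3 of the 9 promoters, those of SLC7A1, SLC1A4 and SLC1A5, against 3.62% of all 35116 promoters. The windows are written 5′ to 3′ on the strand of each gene, with the matched letters in capitals. In SLC7A1 (chr13:29595663-29595692, minus strand) the match covers bases 8 to 15 of the transcript, in SLC1A4 (chr2:64989381-64989410, plus strand) it is read on the opposite strand from base -7 to base 1, and in SLC1A5 (chr19:46784893-46784922, minus strand) it lies from base -97 to base -90.
SLC7A1: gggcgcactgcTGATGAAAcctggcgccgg
SLC1A4: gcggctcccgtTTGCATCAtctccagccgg
SLC1A5: gaggaagtggcTGATGCAAgctgtccaggg

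The core of the antioxidant response element, TGACNNNGC, was found in 2 of the 9 promoters, those of SLC7A5 and SLC7A1, against 13.3% of all promoters. Sequence outside these windows was not searched, nor was SLC7A11. The promoter of SLC38A2, the transporter called in all 4 comparisons below, held neither core. Its 250 bases before the start (chr12:46372774-46373023, minus strand, GRCh38.p14) are shown for reference, and a match or its absence in such a window does not show whether a factor binds there.
SLC38A2: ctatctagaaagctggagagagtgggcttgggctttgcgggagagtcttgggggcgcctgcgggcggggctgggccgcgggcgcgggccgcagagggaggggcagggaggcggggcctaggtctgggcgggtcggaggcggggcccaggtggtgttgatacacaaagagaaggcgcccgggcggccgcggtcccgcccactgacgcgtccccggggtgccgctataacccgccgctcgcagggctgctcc

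SLC38A2 had the highest level of the 10 genes, with a mean of 136.9 TPM over the 10 libraries. SLC1A5 (66.2 TPM), SLC38A1 (62.2 TPM), SLC3A2 (59.5 TPM) and SLC7A5 (47.1 TPM) followed, and each of these overlapped its neighbours in this order from library to library. A lower set was formed by SLC43A1 (15.9 TPM), SLC7A1 (15.3 TPM), SLC6A9 (5.19 TPM), SLC1A4 (5.07 TPM) and SLC7A11 (3.58 TPM), again with overlap between neighbours. In the sgGal4 libraries SLC7A11, at a mean of 9.07 TPM, stood above SLC1A4 (7.32 TPM) and SLC6A9 (7.24 TPM), whereas its mean over the 8 sgHS2 libraries, 2.21 TPM, was the lowest of the 10. The summed TPM of the 10 genes was 475 and 655 in the sgGal4 libraries and between 326 and 433 in the 8 sgHS2 libraries.

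**Figure D1:**
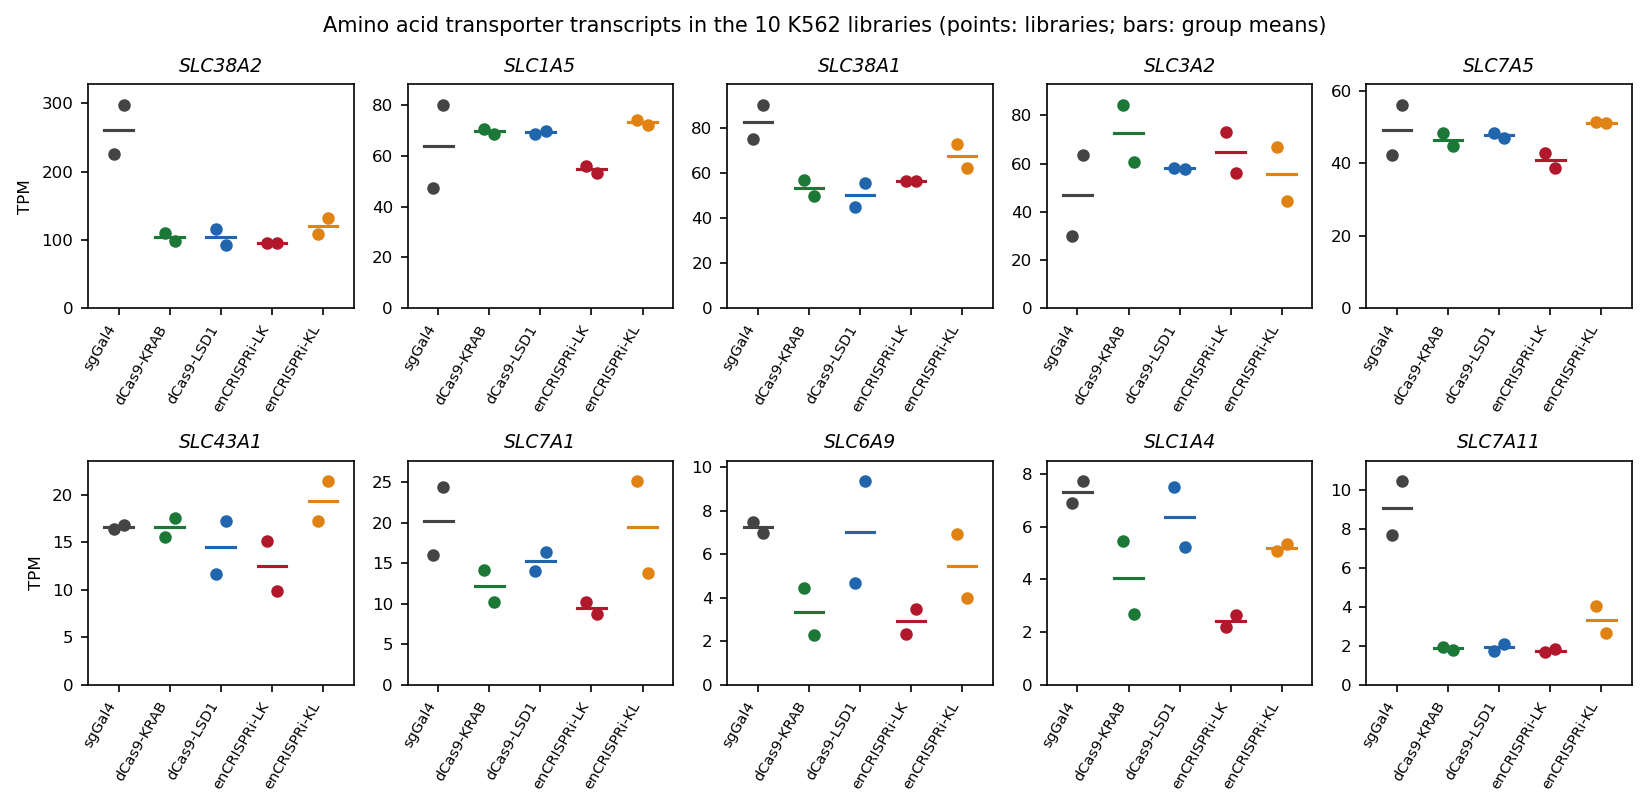
TPM of each of the 10 transporter genes (y axis, from 0) in each library (points) of the 5 groups (x axis), with bars at the group means and genes ordered by mean level. All 8 sgHS2 libraries lie below both sgGal4 libraries for SLC38A2, SLC38A1 and SLC7A11, whereas the groups overlap for SLC7A5, SLC1A5 and SLC3A2.

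Of the 10 genes, 2 were lower than with sgGal4 past the threshold in at least 1 comparison, SLC38A2 in all 4 and SLC7A11 in those of the libraries labelled K and LK. No transporter gene was called higher, against 0.879% (K), 0.306% (L), 1.18% (LK) and 0.632% (KL) of all genes. The called members numbered 2 with K (1.62% of all genes tested were called in this comparison, 0.741% as lower), 1 with L (0.869%, 0.563% as lower), 2 with LK (2%, 0.829% as lower) and 1 with KL (1.36%, 0.731% as lower). SLC38A2 was among 22 genes called lower in each of the 4 comparisons, 0.217% of the genes tested. When the 4 sgHS2 groups were averaged and set against sgGal4, SLC38A2 and SLC7A11 were called (3.26% of all genes, 1.48% as lower and 1.78% as higher). The 4 comparisons share the same sgGal4 libraries and are therefore not independent of each other.

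SLC38A2 encodes SNAT2, a sodium-coupled carrier of small neutral amino acids such as alanine and glutamine whose transcript is known to rise when amino acids are scarce. It lies on the minus strand of chromosome 12 from 46751971 to 46766556 (GRCh37, as for all gene positions below). Its level was 225 and 298 TPM in the sgGal4 libraries, 109 and 97.8 TPM with K, 116 and 91.7 TPM with L, 94.98 and 94.58 TPM with LK, and 109 and 132 TPM with KL. Every sgHS2 library was thus well below the lower sgGal4 library, and the 8 of them spanned a narrow range.

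SLC38A2 fell by 1.32 on the log2 scale with K (standard error 0.187, adjusted p = 0.00384) and by 1.32 with L (adjusted p = 0.00364), where the log2 scale is that of log2(TPM + 1) as fitted by limma. It fell by 1.44 with LK (adjusted p = 0.0018) and by 1.11 with KL (adjusted p = 0.00798). Averaged over the 4 groups it fell by 1.30 (standard error 0.148, 95% interval from -1.61 to -0.98, adjusted p = 0.000368), which left 40.7% of the sgGal4 level (32.7% to 50.7%). In this comparison it was in rank 12 of the 10127 genes by p-value. Whether fewer cells held the transcript or each cell held less of it cannot be told apart in bulk RNA. Each single-group call was lost without a mean-variance trend in limma (adjusted p from 0.0758 to 0.0929, the highest values over the alternatives), and was lost without K replicate 2 (0.0663), without L replicate 2 (0.0761) or without KL replicate 1 (0.0903). The call for the mean of the 4 groups was kept in 7 of 7 alternatives and with each of the 10 libraries left out.

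SLC38A1 encodes SNAT1, a carrier of the same family that also takes up glutamine, and its gene lies on the same strand of chromosome 12 (46576846 to 46663800), 88170 bases from SLC38A2. It was at 75.5 and 90.5 TPM with sgGal4, 56.9 and 49.8 TPM with K, 45.1 and 55.8 TPM with L, 56.4 and 56.6 TPM with LK, and 73.1 and 62.2 TPM with KL. All 8 sgHS2 libraries were below both sgGal4 libraries, by a small margin in KL replicate 1. The difference did not pass the threshold, with a log2 fold change of -0.62 for K (adjusted p = 0.138), -0.71 for L (0.125), -0.54 for LK (0.215), -0.29 for KL (0.552) and -0.54 for the mean of the 4 groups (95% interval -0.88 to -0.21, adjusted p = 0.0807). After median-of-ratios scaling the mean over the 4 groups was -0.58 (adjusted p = 0.0285), and after removal of the mitochondrial genes it was -0.64 (adjusted p = 0.0181, with adjusted p from 0.0181 to 0.218 over the alternatives).

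The ratio of SLC38A2 to SLC38A1 within a library is free of the total that TPM is scaled to. It was 2.99 and 3.29 in the sgGal4 libraries and between 1.48 and 2.57 in the 8 sgHS2 libraries, so the ranges did not overlap. The ratio uses the same SLC38A2 values as the calls above and is not a separate result. How many other pairs of genes separate in this way was not computed.

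SLC7A11 encodes xCT, the light chain that exchanges cystine for glutamate and so supplies cysteine for glutathione. The gene lies on the minus strand of chromosome 4 from 139085251 to 139163503. Its level was 7.70 and 10.4 TPM in the sgGal4 libraries, 1.95 and 1.79 TPM with K, 1.74 and 2.08 TPM with L, 1.66 and 1.81 TPM with LK, and 4.01 and 2.66 TPM with KL. All 8 sgHS2 libraries were far below both sgGal4 libraries, and those labelled KL were the highest of the 8.

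SLC7A11 fell by 1.80 on the log2 scale with K (standard error 0.391, adjusted p = 0.037) and by 1.87 with LK (adjusted p = 0.0259). With L the log2 fold change was -1.78 (adjusted p = 0.0509) and with KL it was -1.22 (95% interval -2.06 to -0.38, adjusted p = 0.15), neither past the threshold. With L it was called in 3 of 7 alternatives (adjusted p = 0.0323 after median-of-ratios scaling, 0.0269 without mitochondrial genes and 0.0424 without a trend, with adjusted p from 0.0269 to 0.123 over the 7) and in 0 of 4 fits with a library left out. Over the mean of the 4 groups it fell by 1.67 (standard error 0.309, 95% interval from -2.33 to -1.003, adjusted p = 0.00959, rank 99 by p-value). On this scale a pseudocount of 1 understates changes at low TPM, and in plain TPM the group means were 20.6% (K), 21.1% (L), 19.1% (LK) and 36.8% (KL) of the sgGal4 mean. The call was kept in 3 of 7 alternatives with K and in 5 of 7 with LK, and in 0 of 4 fits that left out a library of either comparison (adjusted p from 0.0849 to 0.195). For the mean of the 4 groups it was kept in 6 of 6 alternatives and in 8 of 10 fits with a library left out, the exceptions being sgGal4 replicate 1 (adjusted p = 0.0736) and sgGal4 replicate 2 (adjusted p = 0.103).

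SLC3A2 encodes CD98, the heavy chain that carries both xCT and LAT1 to the cell surface, and lies on the plus strand of chromosome 11 from 62623476 to 62656352. It was at 29.9 and 63.6 TPM with sgGal4, 84.4 and 60.8 TPM with K, 58.2 and 57.8 TPM with L, 73.0 and 56.3 TPM with LK, and 67.0 and 44.3 TPM with KL. The sgGal4 libraries differed by a factor of 2.13 from each other and enclosed 5 of the 8 sgHS2 values. The log2 fold change was 0.70 with K (95% interval 0.04 to 1.37, adjusted p = 0.295) and 0.49 over the 4 groups (-0.04 to 1.02, adjusted p = 0.335). Without sgGal4 replicate 2 the value with K was 1.24. Without sgGal4 replicate 1 the value over the 4 groups was -0.04, so the direction of that mean rests on which control library is used. With a library left out the direction also turned with L and KL, but not with K (0.17 to 1.24) or LK (0.01 to 1.08).

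SLC7A5 encodes LAT1, the light chain that imports leucine and other large neutral amino acids, and lies on the minus strand of chromosome 16 from 87863629 to 87903113. Its level was 42.3 and 56.1 TPM with sgGal4, 48.4 and 44.6 TPM with K, 48.4 and 47.0 TPM with L, 42.8 and 38.8 TPM with LK, and 51.4 and 51.0 TPM with KL. In all, 7 of the 8 sgHS2 libraries lay within the range of the control libraries. The log2 fold change over the 4 groups was -0.07 (95% interval -0.42 to 0.28, adjusted p = 0.882), and with LK it was -0.25 (-0.69 to 0.19). SLC7A5 has pseudogene copies on the same chromosome (SLC7A5P1 and SLC7A5P2 in GENCODE), and reads that also align there were left out of its TPM.

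The light chains SLC7A11 and SLC7A5 thus stood in different proportions. SLC7A5 had 5.49 and 5.37 times the TPM of SLC7A11 in the sgGal4 libraries and between 12.8 and 27.8 times in the sgHS2 libraries. These values rest on the SLC7A11 levels given above and are not separate from its calls. The ratio of the heavy chain SLC3A2 to SLC7A5 was 0.706 and 1.13 with sgGal4 and between 0.868 and 1.75 with sgHS2, and these ranges overlapped.

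**Figure D2:**
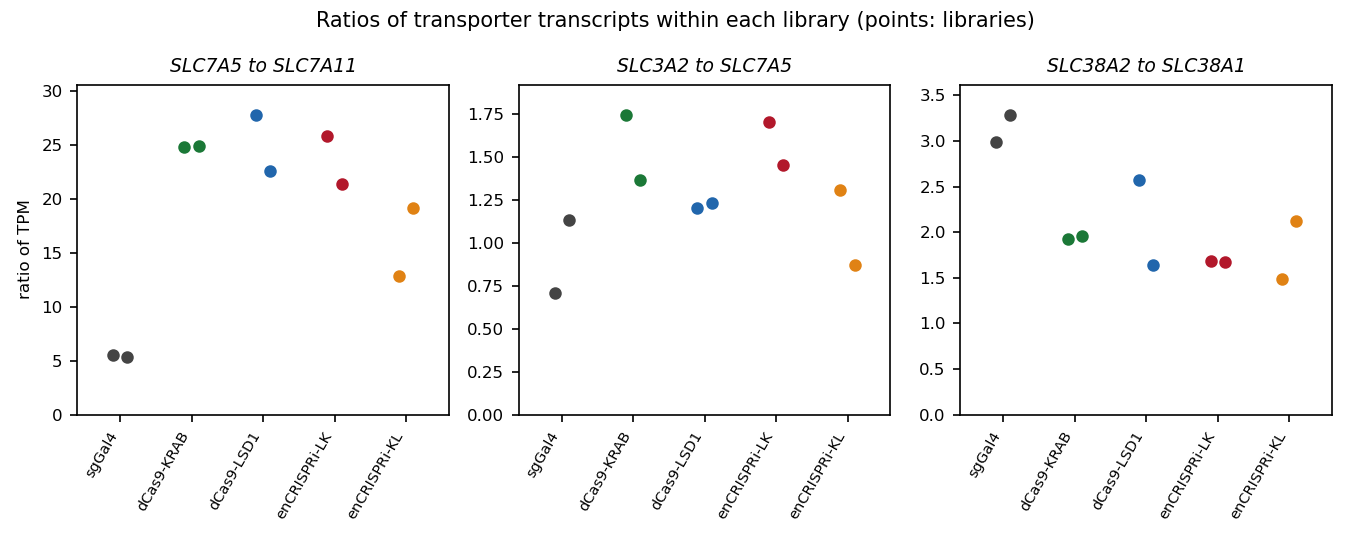
Ratio of the TPM of a pair of transporter genes (y axis, from 0) in each library (points) of the 5 groups (x axis). For SLC7A5 to SLC7A11 the sgGal4 libraries sit at 5.49 and 5.37, below all sgHS2 libraries (12.8 to 27.8), for SLC38A2 to SLC38A1 they sit above all of them, and for SLC3A2 to SLC7A5 they overlap.

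SLC7A1 encodes CAT1, the main importer of arginine and lysine in many cells, and lies on the minus strand of chromosome 13 from 30083551 to 30169825. It was at 16.0 and 24.5 TPM with sgGal4, 14.2 and 10.3 TPM with K, 14.1 and 16.4 TPM with L, 10.3 and 8.71 TPM with LK, and 25.1 and 13.8 TPM with KL. Both libraries labelled K and both labelled LK were below the control libraries, and those labelled KL spread over the whole range. The log2 fold change was -0.67 with K (adjusted p = 0.36), -0.36 with L (0.719), -0.995 with LK (95% interval -1.72 to -0.27, adjusted p = 0.18) and -0.08 with KL (0.951).

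SLC1A4 and SLC1A5 encode ASCT1 and ASCT2, sodium-dependent exchangers of neutral amino acids, of which ASCT2 is a main route of glutamine entry. SLC1A4 lies on the plus strand of chromosome 2 from 65215611 to 65250999, and SLC1A5 on the minus strand of chromosome 19 from 47278140 to 47291851. SLC1A4 was at 6.91 and 7.72 TPM with sgGal4, 5.45 and 2.67 TPM with K, 7.50 and 5.23 TPM with L, 2.20 and 2.65 TPM with LK, and 5.07 and 5.33 TPM with KL. For this gene 7 of the 8 sgHS2 libraries were below both control libraries, the exception being L replicate 1. Its log2 fold change was -1.28 with LK (95% interval -2.12 to -0.45, adjusted p = 0.131) and -0.67 over the 4 groups (adjusted p = 0.287), and neither passed the threshold. SLC1A5, by contrast, lay within the control range in every sgHS2 library. Its values were 47.3 and 80.2 TPM with sgGal4 and from 53.3 to 74.3 TPM (median 69.3) in the 8 sgHS2 libraries, with a log2 fold change of 0.11 over the 4 groups (95% interval -0.27 to 0.48, adjusted p = 0.824).

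SLC6A9 encodes GlyT1, the glycine transporter that erythroid cells use, and lies on the minus strand of chromosome 1 from 44457172 to 44497139. Its level was 7.50 and 6.97 TPM with sgGal4, 4.43 and 2.28 TPM with K, 4.69 and 9.35 TPM with L, 2.34 and 3.46 TPM with LK, and 6.94 and 3.96 TPM with KL. The libraries labelled L lay on both sides of the controls. The log2 fold change was -0.96 with K (95% interval -1.89 to -0.04, adjusted p = 0.303) and -1.09 with LK (-2.02 to -0.17, adjusted p = 0.261), both short of the threshold. SLC6A9 overlaps CCDC24 on the opposite strand, and whether the reads were counted by strand is not given in the sources used here.

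SLC43A1 encodes LAT3, a carrier of branched-chain amino acids and phenylalanine, and lies on the minus strand of chromosome 11 from 57252007 to 57283253. It was at 16.4 and 16.8 TPM with sgGal4 and from 9.85 to 21.5 TPM (median 16.4) in the sgHS2 libraries, with 4 libraries above and 4 below both controls. The log2 fold change over the 4 groups was -0.11 (95% interval -0.62 to 0.41, adjusted p = 0.878).

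**Figure D3:**
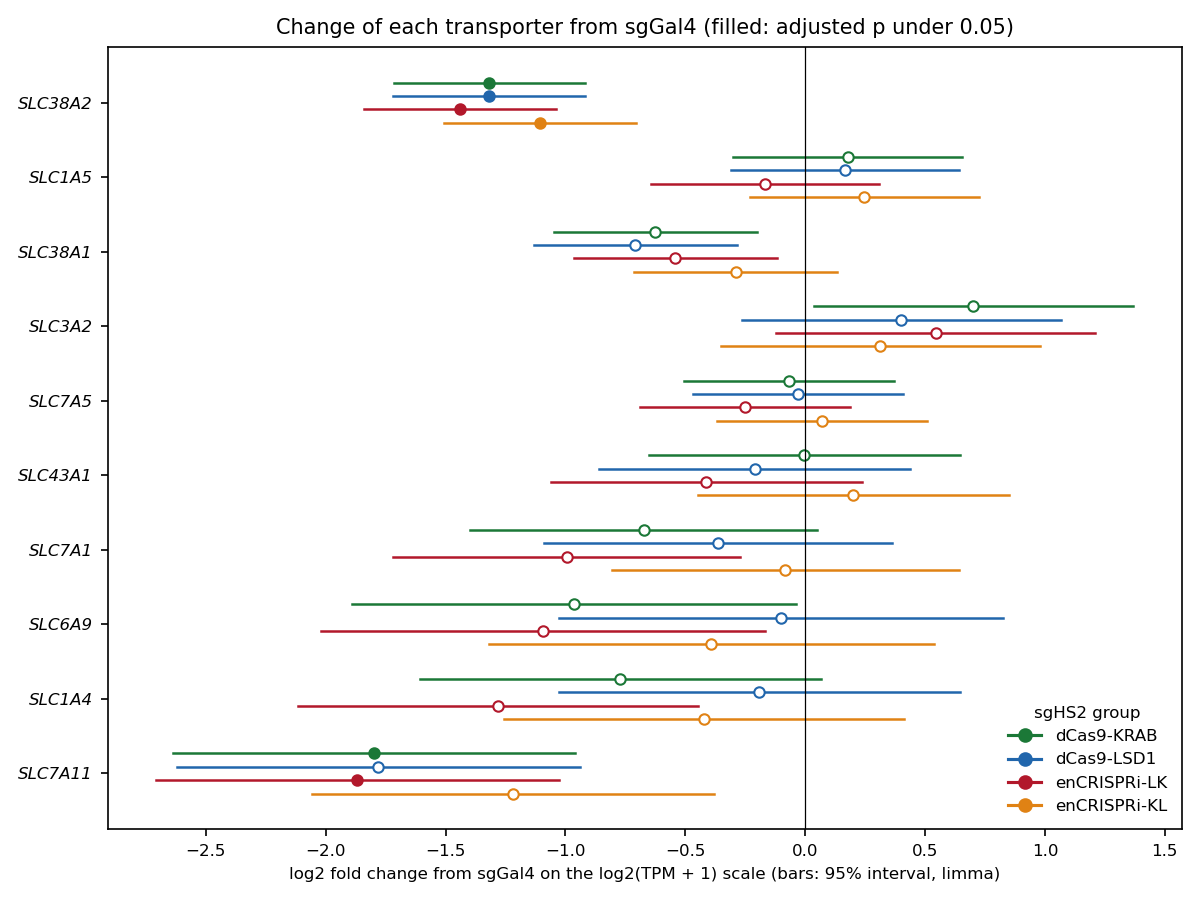
Log2 fold change from sgGal4 of each transporter gene (rows) in the libraries labelled K, L, LK and KL (colours), on the log2(TPM + 1) scale with 95% intervals from limma; filled points passed an adjusted p of 0.05. SLC38A2 is filled in all 4 groups and SLC7A11 with K and LK, while the intervals of SLC7A5, SLC1A5 and SLC43A1 include 0 in every group.

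Counting by overlap alone gave more genes. Both libraries were below both sgGal4 libraries for 6 of the 10 genes with K (18.4% of all genes tested), 3 with L (20.6%), 7 with LK (21%) and 5 with KL (18.6%), and all 8 sgHS2 libraries were below both controls for 3 (5.29%). Both libraries were above the controls for 1 gene, SLC43A1 with KL (24.3% of all genes), and for 0 with K (25.2%), L (20.8%) and LK (24.7%) and over all 8 libraries (6.53%). At an unadjusted p under 0.05, 5 of the 10 genes differed with K (15.6% of all genes), 3 with L (12.8%), 6 with LK (14.2%), 2 with KL (14.7%) and 4 over the mean of the 4 groups (17.1%). The median log2 fold change of the 10 genes was -0.65 with K (0.06 over all genes tested), -0.20 with L (0.0050), -0.77 with LK (0.03) and -0.19 with KL (0.05). After median-of-ratios scaling or removal of the mitochondrial genes these medians of the 10 genes stayed below 0 in all 4 comparisons. Of the 10 genes, 8 had a negative log2 fold change over the mean of the 4 groups, as did 46.4% of all genes.

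The 4 sgHS2 groups were also compared with each other in limma's F test. None of the 10 genes differed among them past the threshold, and 0 had an unadjusted p under 0.05, against 0.336% and 10.4% of all genes. The adjusted p ran from 0.523 for SLC1A4 to 0.887 for SLC3A2. With 2 libraries a group this does not show that the groups act alike, and the lower values of SLC1A4, SLC7A1 and SLC6A9 in the libraries labelled K and LK are given as levels only.

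The profiles of the transporters over the 10 libraries were compared by Pearson's r of log2(TPM + 1), as a description without a test, since the libraries share their groups and the controls set the range. SLC7A11 was most like SLC38A2 (r = 0.936) and SLC38A1 (r = 0.922), and SLC7A5 was most like SLC1A5 (r = 0.879). The lowest value was that of SLC3A2 and SLC38A2 (r = -0.444). Among all genes that averaged 10 TPM or more, those closest to SLC7A11 were ARHGAP18 (r = 0.974), SLC2A3 (r = 0.948) and ABI1 (r = 0.946), and those closest to SLC38A2 were SH2B3 (r = 0.955), ARHGAP18 (r = 0.953) and CD44 (r = 0.945). ARHGAP18 was at 20.6 and 24.5 TPM with sgGal4 and between 6.71 and 10.9 TPM in the 8 sgHS2 libraries.

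For the other amino acid transporters no lower level was called. Of 43 listed genes, 15 were at 0 in every library and 15 were tested. By limma 0 of the 15 were called in any comparison with sgGal4, against 0.869% (L) to 3.26% (the mean) of all genes. At most 2 had an unadjusted p under 0.05, against 12.8% (L) to 17.1% (the mean) of all genes. Their median log2 fold change was between 0.11 (LK) and 0.31 (KL) in the 4 comparisons, and the value with LK turned to -0.02 after removal of the mitochondrial genes. The 9 mitochondrial amino acid carriers that were tested also gave 0 calls (at most 1 at an unadjusted p under 0.05), beside the same shares of all genes. Their medians were between -0.02 and 0.13. A difference between these lists and the 10 transporters, or from all genes, was not tested.

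The genes of the amino acid response, among which ATF4 and its targets are counted, held more calls. This list, too, was chosen with earlier results of these data known. Of 13 tested, 6 were lower with LK, 4 with K, 3 with KL and 2 with L, 6 were lower over the mean of the 4 groups, and none was called higher, against 0.829% (LK), 0.741% (K), 0.731% (KL), 0.563% (L) and 1.48% (the mean) of all genes called lower. The count with LK was 3 without either LK library or without sgGal4 replicate 2, that with K was 1 without K replicate 2, that with KL was 1 without either KL library or without sgGal4 replicate 2, and that with L was 1 without any of the 4 libraries of the comparison. DDIT4, which encodes the mTORC1 inhibitor REDD1, was at 146 and 195 TPM with sgGal4 and between 13.5 and 49.9 TPM in the 8 sgHS2 libraries. It fell by 2.55 on the log2 scale over the 4 groups (adjusted p = 6.56e-06). CHAC1, a glutathione-degrading enzyme, was at 16.7 and 26.8 TPM with sgGal4 and between 1.19 and 6.33 TPM with sgHS2, and fell by 2.60 (adjusted p = 0.000815).

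ASNS, the asparagine synthetase, fell by 1.48 with K (adjusted p = 0.00679) and by 1.91 with LK (adjusted p = 0.00139), from 74.8 and 79.9 TPM with sgGal4 to 32.9 and 22.3 TPM with K and 19.4 and 20.1 TPM with LK. The call with K was lost without K replicate 2 (adjusted p = 0.0887) and without a trend (0.0633, the highest over the alternatives). ATF3, a stress-induced transcription factor, fell by 1.80 with KL (adjusted p = 0.0208), a call kept in 5 of 7 alternatives and lost without either KL library or sgGal4 replicate 2. The remaining calls over the 4 groups were DDIT3 and SESN2. That of DDIT3 was lost without either sgGal4 library, and that of SESN2 was lost without a filter and in 5 of 10 fits with a library left out (either sgGal4 library, L replicate 1, LK replicate 1 and KL replicate 2). The transcript of ATF4 itself was at 124 and 164 TPM with sgGal4 and between 86.4 and 134 TPM with sgHS2, overlapped between the groups, and was not called. The count of 6 over the 4 groups was 4 without sgGal4 replicate 1, 3 without sgGal4 replicate 2 and 8 after removal of the mitochondrial genes. The 3 called without sgGal4 replicate 2 were DDIT4, CHAC1 and ASNS, which were also called over the 4 groups in all 10 fits with a library left out.

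The lists around amino acid use each held at most 1 call in a comparison with sgGal4, where 0.869% (L) to 3.26% (the mean) of all genes were called. A difference from these shares was not tested. Among 28 tested genes of amino acid sensing by mTORC1, SEC13 was higher with K (0.79 on the log2 scale, adjusted p = 0.0492), a call kept in 2 of 8 alternatives and in 1 of 4 fits with a library left out. Among 15 genes of glutathione and cystine use, CTH, which makes cysteine from cystathionine, was lower over the 4 groups (-1.78, adjusted p = 0.0382). That call was kept in 2 of 6 alternatives and in 2 of 10 fits with a library left out, and was lost without either sgGal4 library. Among 13 genes of glutamine and glycine use, 0 were called by limma in any comparison with sgGal4. At most 3 had an unadjusted p under 0.05, against 12.8% (L) to 17.1% (the mean) of all genes.

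Of 143 other genes with an SLC symbol that were tested, between 4 and 5 were called with each effector, and 6 over the mean of the 4 groups, against 0.869% (L) to 2% (LK) of all genes tested with each effector and 3.26% for the mean. A difference from that background was not tested. SLC2A3, which encodes the glucose transporter GLUT3, was called lower in all 4 comparisons, at 153 and 158 TPM with sgGal4 and between 38.9 and 80.5 TPM with sgHS2. It fell by 1.48 over the 4 groups (adjusted p = 0.000339), a call kept in 7 of 7 alternatives and in all 10 fits with a library left out. Its single calls with K, LK and KL were lost without a trend, and the one with KL was also lost without a filter, without KL replicate 2 and without either sgGal4 library. SLC4A2, an anion exchanger of chloride and bicarbonate, was called higher in all 4, at 0.88 over the 4 groups (adjusted p = 0.00257, or 0.0501 without sgGal4 replicate 1 and 0.0666 without a trend). Each of its 4 single calls was kept in 1 of 4 fits with a library left out, the one without sgGal4 replicate 2, and was lost without a trend and with only the groups compared. SLCO4C1, an organic anion transporter, fell by 2.23 with K, from 15.0 and 13.1 TPM with sgGal4 to 3.35 and 1.35 TPM (adjusted p = 0.0182). This call was lost without a filter, without a trend and without K replicate 2 or sgGal4 replicate 1. SLCO4C1 was also called lower with L (adjusted p = 0.0334, kept in 2 of 7 alternatives), KL (0.0191, 5 of 7) and over the 4 groups (0.00492, 6 of 6). The call with L was lost without any library of its comparison. That with KL was lost without KL replicate 1 or either sgGal4 library, and that over the 4 groups without sgGal4 replicate 1. SLC18A2, the vesicular monoamine transporter, was listed at 0 in both sgGal4 libraries and at 7.37 and 6.20 TPM with KL, and at most at 0.4 TPM in the other 6. It reached the mean of 1 TPM that a gene needed to be tested only through the KL libraries, so its difference is given as a description with no test. The count with KL above includes SLC18A2 and is not to be set against the share of all genes. Over the 4 groups 3 of the 143 genes were lower and 3 higher.

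**Figure D4:**
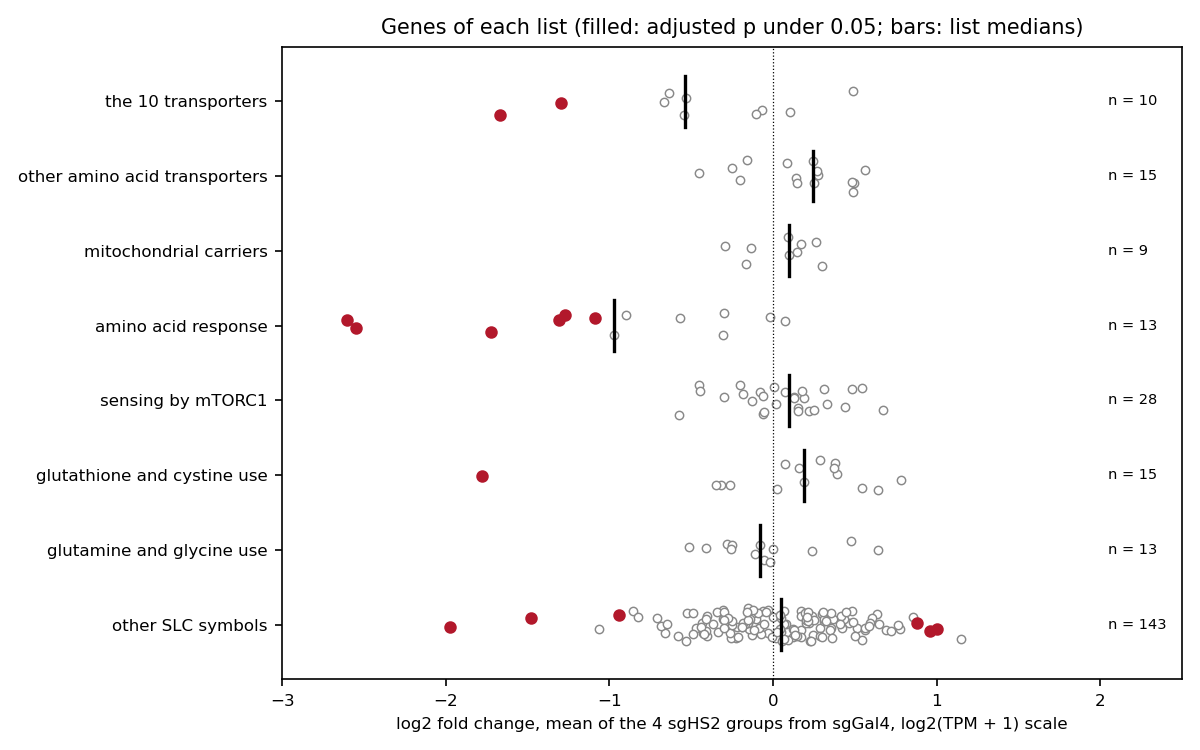
Log2 fold change from sgGal4 of the mean of the 4 sgHS2 groups (x axis, log2(TPM + 1) scale) for every tested gene (points) of each list (rows), with bars at the list medians and filled points for an adjusted p under 0.05. The 10 transporters and the amino acid response have their medians below 0 and their called genes to the left. The other amino acid transporters hold no called gene, where 3.26% of all genes tested were called, and lie mostly to the right of 0.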

How the data were processed

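RNA-seq of 10 K562 libraries, 5 groups of 2, was analysed. Each library's group and number follow its label. The authors aligned reads to hg19 with STAR 2.5.2b, used only uniquely placed reads, and deposited 1 TPM value per gene symbol, computed by RSEM. The annotation is not given in the sources used here. The labels name a poly(A) selection and a directional kit, and the methods name the Ovation system. TPM keeps no read counts, so the depth is unknown, and the DESeq2 step named by the study, which needs counts, was not repeated. The deposited TPM values sum to between 790470 and 844414 per library.

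The deposited values were transformed to log2(TPM + 1), and 10127 genes reaching 1 TPM on average were tested. All 10 libraries entered one limma fit (version 3.58.1, R 4.3.3, jsonlite 2.0.0; 5 residual degrees of freedom, variances moderated with a mean-variance trend), with Benjamini-Hochberg adjustment over all genes tested and a threshold of 0.05. The fit was tested on simulated data. Nothing in the labels says that replicates came from separate cultures, so p-values measure the spread between these libraries, which may be technical. Same-numbered libraries did not deviate together (correlation from -0.0213 to 0.0229 over 10 pairs of groups).

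The 10 genes and all gene lists were chosen with earlier results of these data known. Named genes were the 10 members, the 2 list genes of smallest p per comparison, with DDIT3, SESN2, ATF4 and the cell markers named added after their values were seen, and the 3 genes most like each of the 2 most changed members. Coordinates are from GENCODE release 44 mapped to GRCh37, and promoters from RefSeq (Python 3.11.15, numpy 2.4.6, matplotlib 3.10.9). Alternatives were a pseudocount of 0.1, no filter or a filter at 10 TPM, median-of-ratios scaling, removal of the 13 mitochondrial genes, no trend, only the groups compared, the replicate block and leaving out each library. Their use on the other lists was added after seeing the data.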

Additional observations from a re-analysis of the deposited data

How the results depend on the processing

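The count of called transporters, 2 with K, became 1 with a pseudocount of 0.1, without a filter, with a filter at 10 TPM, without a trend, with only the groups compared and with the replicate block, where the adjusted p of SLC7A11 with K was 0.0532, and 3 without mitochondrial genes (SLC38A1 added). With L the count of 1 became 2 with median-of-ratios scaling and 3 without mitochondrial genes, and without a trend the 1 gene was SLC7A11 in place of SLC38A2. With LK the count of 2 became 1 without a filter, with a filter at 10 TPM, without a trend and with only the groups compared, and with KL the count of 1 became 0 without a trend. For the mean of the 4 groups it was 1 with a filter at 10 TPM, which leaves SLC7A11, SLC1A4 and SLC6A9 untested, and 3 (SLC38A1 added) with median-of-ratios scaling or without mitochondrial genes. The replicate numbers did not pair the libraries, and the block changed no other call of the 10 genes. With single libraries left out, where the remaining library of a group is assumed to vary like the others, the counts ran from 0 to 2 with K, 0 to 1 with L, 1 to 1 with LK, 0 to 1 with KL, 1 to 2 for the mean and 0 to 0 for the F test. The causes were not tested.

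Removal of the mitochondrial genes moved the median log2 fold change of all genes by -0.11 with K and with LK, and turned the balance of all called genes from 89 higher and 75 lower to 71 and 138 with K, from 119 and 84 to 91 and 153 with LK, and from 180 and 150 to 147 and 268 for the mean. Median-of-ratios scaling turned it to 85 and 102 with K, 102 and 113 with LK and 179 and 196 for the mean. Without sgGal4 replicate 2 it was 181 and 50 with K, 99 and 39 with L, 171 and 38 with LK, 117 and 50 with KL and 215 and 59 for the mean. Over the alternatives the number of all genes called ran from 14 to 226 with K (164 as reported), 22 to 140 with L (88), 15 to 244 with LK (203), 66 to 202 with KL (138), 99 to 415 for the mean (330) and 8 to 40 for the F test (34). With a library left out it ran from 9 to 231 with K (9 without K replicate 2), 16 to 138 with L (16 without L replicate 2), 20 to 209 with LK (20 without LK replicate 1), 49 to 167 with KL (49 without KL replicate 2), 90 to 274 for the mean (90 without sgGal4 replicate 1) and 10 to 23 for the F test.

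Values that turned in direction, none of them called, were -0.0324 for SLC7A5 with KL without mitochondrial genes (0.07 as reported) and those below, given as ranges of log2 fold change with a library left out. SLC7A5 ran from -0.27 to 0.13 with K, -0.23 to 0.17 with L, -0.13 to 0.27 with KL and -0.27 to 0.13 for the mean. SLC1A5 ran from -0.20 to 0.55 with K, -0.21 to 0.54 with L, -0.54 to 0.20 with LK, -0.13 to 0.62 with KL and -0.27 to 0.48 for the mean. SLC3A2 ran from -0.13 to 0.94 with L, -0.22 to 0.85 with KL and -0.0434 to 1.02 for the mean. SLC43A1 ran from -0.0872 to 0.0786 with K and -0.47 to 0.0536 with L, SLC7A1 from -0.49 to 0.33 with KL, SLC6A9 from -0.53 to 0.33 with L and SLC1A4 from -0.41 to 0.0335 with L. The depth is unknown, so no detection limit was given, and 5 residual degrees of freedom limit every test.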
